A study of Mus musculus with 12 samples.

Results

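The late cornified envelope (Lce) genes encode small proteins that keratinocytes lay down beneath the plasma membrane as they turn into the dead cells of the skin surface. Members of the Lce1 and Lce3 subfamilies, 10 genes in all, were followed here in mouse dorsal skin, namely Lce1e, Lce1f, Lce1g, Lce1h and Lce1m of Lce1 and Lce3a, Lce3b, Lce3c, Lce3e and Lce3f of Lce3. They were taken as a listed set by gene symbol, and each has at least 1 array row that names it alone. They are 10 of the 22180 genes that could be tested, and 10 of the 18 Lce genes with such a row.

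The skin came from C57Bl/6 mice, with males and females pooled, and each sample was a pool of several mice read on 1 expression array. The study had 4 genotypes: wild type (WT), IL-6KO mice without a working interleukin-6 gene, mice with an IL-17C transgene (IL-17C+), and mice with the transgene crossed onto the IL-6 knockout (IL-17C+KO). Both transgenic genotypes gave a pool of involved and a pool of uninvolved skin, so that there were 6 groups. Every group had 1 pool from mice aged 10 weeks and 1 from mice aged 14 weeks, giving 12 arrays. The 10-week WT and IL-6KO pools held 4 mice each, and all other pools 5. WT and IL-6KO carry no transgene, and their skin came from matching parts of the back. In one label field IL-6KO is also tagged as involved and WT as uninvolved skin, although their titles name no site. The labels name neither the promoter that drives the transgene nor whether involved and uninvolved pools share mice. The 2 pools of a group differ in age, so the p-values below measure the spread between single pools after a shared age effect. In such bulk skin, fewer cells of a type and less RNA per cell cannot be told apart.

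The cornified envelope is a protein shell that transglutaminases weld together in the granular layer, the last living layer of the epidermis. Loricrin, involucrin and the small proline-rich (Sprr) proteins are its better known building blocks, and the Lce proteins join it late. In human skin, LCE1 genes belong to the normal surface epidermis, while LCE3 genes are low there and are known for their induction after barrier injury and in psoriasis. What each single mouse Lce protein does is not settled, so the members are described by subfamily.

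All 10 genes lie in 1 stretch of chromosome 3, within the epidermal differentiation complex. Between Lce1e and Lce1m the RefSeq gene table (GRCm38.p6) lists 18 protein-coding genes, of which 15 are Lce genes. Lce1e, Lce1f, Lce1g and Lce1h stand side by side at one end, the Lce3 genes follow in the middle, and Lce1m stands alone at the other end beyond Lce3f and Crct1. The upstream sequences are shown for 6 members because the data below set Lce1m apart from Lce1e and Lce1h and from the Lce3 genes. The Lce3 genes were less clearly apart from Lce1e and Lce1h, which leaned the same way in several comparisons. Each line gives the 100 bases before the annotated start, 5′ to 3′ on the gene's own strand, from RefSeq on GRCm38.p6, and capitals mark the letters ATAAAA, which were picked after the sequences had been read.
Lce1e: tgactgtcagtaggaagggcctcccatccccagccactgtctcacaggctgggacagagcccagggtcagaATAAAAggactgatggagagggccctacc
Lce1h: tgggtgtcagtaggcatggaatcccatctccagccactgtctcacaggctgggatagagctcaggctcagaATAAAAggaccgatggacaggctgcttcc
Lce1m: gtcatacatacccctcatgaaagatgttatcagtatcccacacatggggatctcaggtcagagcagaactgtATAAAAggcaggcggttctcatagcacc
Lce3a: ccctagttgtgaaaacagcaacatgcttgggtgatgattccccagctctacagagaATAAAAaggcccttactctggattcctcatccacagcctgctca
Lce3c: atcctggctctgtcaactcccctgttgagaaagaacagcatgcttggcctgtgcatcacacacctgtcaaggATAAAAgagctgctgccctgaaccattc
Lce3f: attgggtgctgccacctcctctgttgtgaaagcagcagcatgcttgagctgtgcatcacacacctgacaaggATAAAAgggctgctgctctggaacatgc
The Lce1 windows lie on the minus strand, at chr3:92709075-92709174 (Lce1e), chr3:92765066-92765165 (Lce1h) and chr3:93019062-93019161 (Lce1m). Lce3a is also on the minus strand (chr3:92926231-92926330), and Lce3c (chr3:92944386-92944485) and Lce3f (chr3:92992117-92992216) are on the plus strand.

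An upstream entry was at hand for 9 of the 10 members, without Lce1f. On the gene's strand, ATAAAA lay between 40 and 20 bases before the start in 8 of the 9, all but Lce3a, against 508 of 32851 mouse promoters (1.55%). The letters were picked from these same sequences, several of which resemble one another, so the shares describe and do not test. The window before Lce1m resembled no other member closely. Its identity was 49.2% to 54.4% with Lce1e, Lce1g and Lce1h and 49.2% to 56.0% with the 5 Lce3 genes, whereas Lce1e, Lce1g and Lce1h shared 78.0% to 90% among themselves. Lce3c, Lce3e and Lce3f shared 82.4% to 90.1%, and Lce3a matched the other Lce3 genes at 50% to 55.5%. Over 250 bases and both strands, the AP-1 letters TGANTCA and the STAT letters TTCNNNGAA were found in none of the 9 members, and in 6.75% and 7.02% of all promoters. The C/EBP letters TTGCNNAA were found before Lce3f alone (9.56% of all promoters), and the NF-kB letters before Lce1e and Lce3f (45.8%). The letters TATAAA were found before Lce1m, where they overlap the marked ATAAAA, and farther up before Lce3e (12.4%). These matches describe letters only.

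The arrays correlated with one another at 0.889 to 0.976 over all genes, and no pair held identical values. Basal, suprabasal and granular layer markers showed that epidermis was present in every pool, with mean log2 intensities of 7.90 to 10.31 for the granular list. The summed intensity of 6 neutrophil markers was 105 to 145 for WT, 253 to 747 for IL-6KO, 113 to 197 for IL-17C+ uninvolved and 4634 to 6576 for IL-17C+ involved skin. In IL-17C+KO skin the labels ran the other way: the pools labelled uninvolved summed to 4793 and 6113, and those labelled involved to 181 at 10 weeks and 1100 at 14 weeks. Il17c, in log2 intensity, was 4.67 and 4.96 for WT, 6.30 and 6.17 for IL-6KO, 5.81 and 6.63 for IL-17C+ involved, 4.74 and 4.16 for IL-17C+ uninvolved, 5.32 and 5.62 for IL-17C+KO involved and 6.16 and 6.25 for IL-17C+KO uninvolved skin. Of the 8 transgenic arrays 6 lay above both WT arrays, as did both IL-6KO arrays, which carry no transgene. Il6 was highest in the pools labelled IL-17C+KO uninvolved, at 4.93 and 5.00. Whether these rows read the transgene or the disrupted part of Il6 is not known, so they check no label. The 12 skeletal muscle markers, all above the median of their array everywhere, ranged in sum from 17194 to 27316 for WT, 6917 to 11434 for IL-6KO, 3850 to 4922 for IL-17C+ involved and 19930 to 24732 for IL-17C+ uninvolved skin. The pools labelled IL-17C+KO involved summed to 21983 and 8703, and those labelled uninvolved to 6209 and 9062. The part of these shifts in the Lce differences was not tested beyond the fit with a muscle covariate given below.

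Levels are log2 intensities, each relative only to the same gene on other arrays, and the median gene of an array stood at 3.97 to 4.23. Lce1f, Lce1m and Lce3c lay above their array's median on all 12 arrays, Lce1e on 11 and Lce1h on 9. Lce3b exceeded it on 6 arrays, Lce3a and Lce3f on 5 each and Lce3e on 2. Lce1g was below it on every array and varied between 2.16 and 3.0, so its row carried little signal.

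Within Lce1, 3 genes shared a pattern and Lce1m had another. Lce1e read 3.67 and 4.03 for WT (10 weeks, then 14 weeks, as in all pairs below), 5.22 and 6.82 for IL-6KO, 5.85 and 5.89 for IL-17C+ involved, 4.33 and 4.12 for IL-17C+ uninvolved, 4.82 and 7.48 for IL-17C+KO involved and 5.90 and 5.48 for IL-17C+KO uninvolved skin. Its 8 arrays of IL-6KO, IL-17C+ involved and both IL-17C+KO groups were all above its WT and IL-17C+ uninvolved arrays, and these 4 groups overlapped one another. Lce1f read 5.45 and 5.89 for WT, 7.16 and 8.18 for IL-6KO, 7.74 and 7.52 for IL-17C+ involved, 6.22 and 5.40 for IL-17C+ uninvolved, 6.65 and 8.66 for IL-17C+KO involved and 7.49 and 7.80 for IL-17C+KO uninvolved skin. Lce1h read 3.27 and 4.13, 4.57 and 5.65, 4.79 and 5.17, 3.47 and 3.98, 4.38 and 5.36, and 4.85 and 4.52 in the same order of groups. For Lce1f and Lce1h, too, the same 4 groups overlapped and lay above WT and IL-17C+ uninvolved skin, which overlapped each other. Among those 8 arrays all 3 genes were lowest on the 10-week pool labelled IL-17C+KO involved, and Lce1e and Lce1f were at their highest in its 14-week partner.

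Lce1m was low where the neutrophil markers were high. It read 8.28 and 9.96 for WT, 8.70 and 8.49 for IL-6KO, 6.12 and 6.45 for IL-17C+ involved, 9.13 and 9.10 for IL-17C+ uninvolved, 9.67 and 9.07 for IL-17C+KO involved and 7.65 and 6.69 for IL-17C+KO uninvolved skin. The group means ran from 9.37 ± 0.42 (SD, n = 2) for IL-17C+KO involved through WT, IL-17C+ uninvolved and IL-6KO down to 7.17 ± 0.68 for IL-17C+KO uninvolved and 6.29 ± 0.23 for IL-17C+ involved skin. WT overlapped the 3 other groups at the top of this order, while the IL-17C+KO uninvolved and IL-17C+ involved pools lay below those 4 groups and apart from each other. A second row that names Lce1m alone was less clear, with 6.45 and 7.83 for WT, 7.33 and 6.71 for IL-6KO, 6.27 and 5.75 for IL-17C+ involved, 6.22 and 6.52 for IL-17C+ uninvolved, 6.83 and 7.02 for IL-17C+KO involved and 6.10 and 5.58 for IL-17C+KO uninvolved skin. On that row the involved and uninvolved IL-17C+ pools overlapped.

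**Figure D1:**
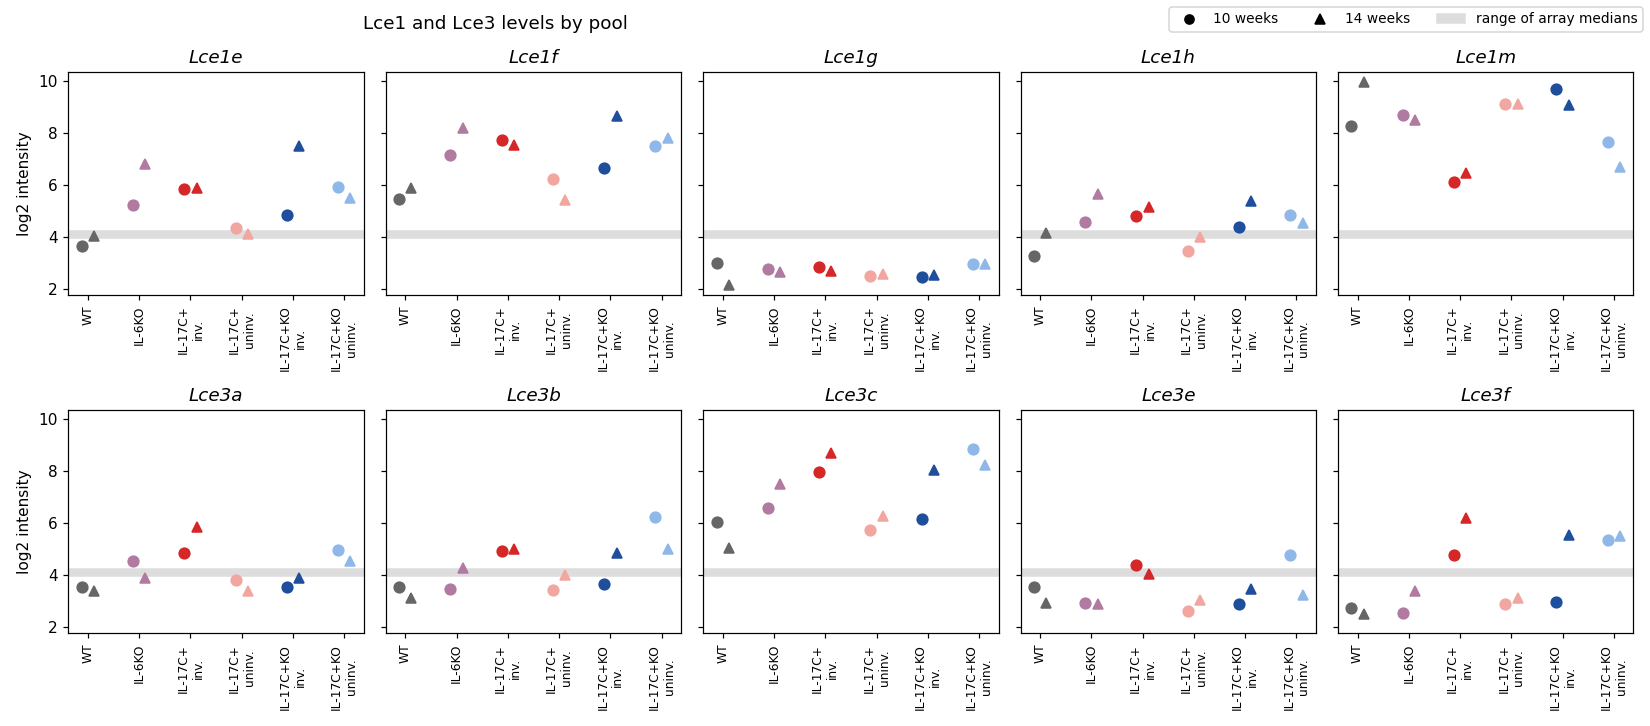
Log2 intensity of each of the 10 Lce genes on each array by group, with points for the pools at 10 and 14 weeks; the grey band marks the range of array medians. Lce1m is low in IL-17C+ involved skin (6.12 and 6.45) where Lce3c (7.98 and 8.68) and Lce3f (4.78 and 6.18) are high, and Lce1g stays between 2.16 and 3.0.

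The Lce3 genes were high in IL-17C+ involved skin and in the pools labelled IL-17C+KO uninvolved. Lce3c, the Lce3 member above the array median on every array, read 6.05 and 5.04 for WT, 6.58 and 7.50 for IL-6KO, 7.98 and 8.68 for IL-17C+ involved, 5.72 and 6.26 for IL-17C+ uninvolved, 6.17 and 8.03 for IL-17C+KO involved and 8.84 and 8.25 for IL-17C+KO uninvolved skin. In the order of its group means, IL-17C+KO uninvolved (8.54 ± 0.42) and IL-17C+ involved (8.33 ± 0.50) overlapped, as did IL-17C+KO involved (7.10 ± 1.31) and IL-6KO (7.04 ± 0.65), and IL-17C+ uninvolved (5.99 ± 0.38) and WT (5.55 ± 0.71). The IL-17C+KO involved pair was so far apart that it also overlapped IL-17C+ involved and IL-17C+ uninvolved skin. Lce3f read 2.74 and 2.5 for WT, 2.53 and 3.38 for IL-6KO, 4.78 and 6.18 for IL-17C+ involved, 2.89 and 3.13 for IL-17C+ uninvolved, 2.96 and 5.55 for IL-17C+KO involved and 5.34 and 5.52 for IL-17C+KO uninvolved skin. For Lce3f 5 arrays stood high, namely both IL-17C+ involved pools, both pools labelled IL-17C+KO uninvolved and the 14-week pool labelled IL-17C+KO involved, and the other 7 were lower, with no value between.

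Lce3a read 3.54 and 3.40 for WT, 4.54 and 3.88 for IL-6KO, 4.85 and 5.87 for IL-17C+ involved, 3.83 and 3.37 for IL-17C+ uninvolved, 3.55 and 3.89 for IL-17C+KO involved and 4.98 and 4.53 for IL-17C+KO uninvolved skin. Unlike Lce3c and Lce3f, it was not high in the 14-week pool labelled IL-17C+KO involved. Lce3b read 3.56 and 3.11, 3.48 and 4.29, 4.95 and 5.00, 3.42 and 4.01, 3.67 and 4.85, and 6.23 and 5.02 in the same order of groups. Lce3e read 3.53 and 2.91, 2.91 and 2.87, 4.40 and 4.03, 2.63 and 3.04, 2.89 and 3.48, and 4.77 and 3.22. Its WT and IL-17C+KO uninvolved pools overlapped, and 10 of its 12 arrays were below the array median.

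The first comparison asked how involved skin of transgenic mice differs from WT skin. Lce3a, Lce3c and Lce3f rose and Lce1m fell, so that 4 of the 10 members passed an adjusted p of 0.05 in limma with Benjamini-Hochberg adjustment over all genes, where 1.8% of all 22180 genes passed. Of all genes, 1.1% rose and 0.699% fell. Lce3f rose by 2.86 ± 0.50 on the log2 scale (SE, 2 arrays against 2), which is 7.28-fold, with differences of 2.04 at 10 weeks and 3.69 at 14 weeks (limma adjusted p = 0.0122). Lce3c rose by 2.78 ± 0.51, or 6.87-fold, from 1.92 and 3.64 at the 2 ages (limma adjusted p = 0.017). In both genes every involved array lay above every WT array. Lce3a rose by 1.89 ± 0.34, or 3.70-fold, from 1.31 and 2.47 (limma adjusted p = 0.0156). Lce3f and Lce3a lay below the array median on every WT and every IL-17C+ uninvolved array, so their folds against these groups start from low signal. Lce1m fell by 2.83 ± 0.47, or 7.11-fold, from -2.15 and -3.51 (limma adjusted p = 0.0102), with no overlap between the groups. With 2 arrays a side, such separation adds little to these tests, and its share over all genes was not counted.

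The other members mostly leaned the same way as Lce3 without passing. The differences were 1.96 ± 0.49 for Lce1f (limma adjusted p = 0.0652), 1.28 ± 0.31 for Lce1h (adjusted p = 0.0585) and 2.02 ± 0.57 for Lce1e (adjusted p = 0.113). Lce3b stood at 1.64 ± 0.44 (limma adjusted p = 0.0926), Lce3e at 1.0 ± 0.39 (adjusted p = 0.305) and Lce1g at 0.18 ± 0.22 (adjusted p = 0.832). The median difference was 1.28 over the 5 Lce1 genes and 1.89 over the 5 Lce3 genes, against 0.01 over all genes. Of the 8 Lce genes that are not members, Lce3d rose by 2.54 ± 0.29 (limma adjusted p = 0.000896), and the largest of the 7 that did not pass was Lce6a at 1.41 ± 0.45 (adjusted p = 0.176).

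Few arrays carried this comparison. The count of 4 members, with 399 of all genes called, became 0 without the 14-week WT pool (149 of all genes) or the 14-week IL-17C+ involved pool (119), and 1 without the 10-week involved pool (65). It was 8 without the 4 IL-17C+KO arrays (418 of all genes) and 9 with only these 2 groups in the fit (883). With the second Lce1m row its difference was -1.13 ± 0.40 (limma adjusted p = 0.241). With the mean of the muscle markers as a covariate no gene of all 22180 passed. The median standard error of a difference, over genes and the comparisons between groups, was 1.68 times that of the fit without it. In that fit Lce3c turned to -0.31 ± 0.56 and Lce3f fell to 0.29 ± 0.73, while Lce1m stood at -1.58 ± 0.96 and Lce3a at 1.60 ± 0.76. The covariate also left no member called in the comparisons below, except for IL-17C+KO uninvolved against IL-6KO skin.

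Involved skin set against uninvolved skin of IL-17C+ mice gave calls for Lce1m, Lce3a, Lce3c and Lce3f. This contrast shares its involved arrays with the one before and is no separate evidence about them. Of the 10 members 4 passed, where 1.61% of all genes did, 0.775% higher and 0.834% lower. Lce1m fell by 2.83 ± 0.47, or 7.09-fold (-3.0 at 10 and -2.65 at 14 weeks, limma adjusted p = 0.00931). Lce3f rose by 2.47 ± 0.50, or 5.54-fold (1.89 and 3.05, limma adjusted p = 0.0269). Lce3c rose by 2.34 ± 0.51, or 5.05-fold (2.25 and 2.42, limma adjusted p = 0.0404), and Lce3a by 1.76 ± 0.34, or 3.38-fold (1.02 and 2.49, adjusted p = 0.0234). With the muscle covariate, under which no gene at all passed, Lce3c turned to -0.82 and Lce3f to -0.16, with Lce1m at -1.55 and Lce3a at 1.46. Among the cell type markers, 6 of 6 neutrophil and 6 of 7 stressed epidermis markers rose and 10 of 12 muscle markers fell here too. The stressed epidermis list marks keratinocytes, and it shares S100a8 and S100a9 with the neutrophil list. The Lce3 median was 1.76 and the Lce1 median 1.25, against 0.02 over all genes. Lce1f (1.82 ± 0.49, limma adjusted p = 0.0973), Lce1h (1.25 ± 0.31, adjusted p = 0.0697) and Lce1e (1.64 ± 0.57, adjusted p = 0.228) did not pass, and neither did Lce3b at 1.26 ± 0.44 (adjusted p = 0.23) nor Lce3e at 1.38 ± 0.39 (adjusted p = 0.119). Lce3d rose by 2.07 ± 0.29 (limma adjusted p = 0.00344). The count, beside 357 of all genes, became 0 without the 14-week involved or uninvolved pool (63 and 224 of all genes), 1 without the 10-week one (82 and 170), and 2 with age left out of the model (301), which ended the calls of Lce3c and Lce3f. It was 8 without the IL-17C+KO arrays (383 of all genes) and 9 with only these 2 groups (770), and the second Lce1m row gave -0.36 ± 0.40 (limma adjusted p = 0.802).

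No member passed between IL-17C+ uninvolved skin and WT skin, where 0.0541% of all genes passed in limma. None of the 10 reached an unadjusted p under 0.05, against 1261 of all genes. The differences ran from -0.38 for Lce3e to 0.44 for Lce3c, with a median of 0.14 over the members and 0.01 over all genes. For Lce3c the interval is wide, at 0.44 ± 0.51 (SE).

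IL-6KO skin was set against WT skin to ask what loss of IL-6 does without the transgene. No member passed in limma, where 0.455% of all genes passed, but 4 members had an unadjusted p under 0.05, as had 1865 of all genes. These were Lce1e at 2.17 ± 0.57 (limma adjusted p = 0.174), Lce1f at 2.0 ± 0.49 (adjusted p = 0.125), Lce1h at 1.41 ± 0.31 (adjusted p = 0.0774) and Lce3c at 1.49 ± 0.51 (adjusted p = 0.374). Lce1m stood at -0.53 ± 0.47 (limma adjusted p = 0.839), and its IL-6KO pools lay within the WT range. The Lce1 median was 1.41 and the Lce3 median 0.55, against -0.01 over all genes. Against 101 of all genes in the fit above, Lce1e, Lce1f and Lce1h passed in a fit without the 4 IL-17C+KO arrays (132 of all genes), and 3 members passed with only these 2 groups (266). Hair shaft markers also differed here, with 10 markers summing to 443 and 635 in WT and to 5260 and 5422 in IL-6KO skin, and 8 of the 10 rose. Of 6 fibroblast markers 3 fell, the collagen genes Col1a2 at -2.29, Col1a1 at -2.21 and Col3a1 at -2.16, and the 6 summed to 25077 and 18843 in WT against 7160 and 6471 in IL-6KO skin. Of 12 muscle markers 2 fell (median -1.34), and with the muscle covariate Lce3c turned to -0.60 ± 0.43. The part of the hair shaft and fibroblast lists in the result was not tested.

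On the IL-6KO background, the pools labelled involved were set against IL-6KO skin. No member passed, where 0.171% of all genes passed in limma. Lce3f at 1.30 ± 0.50 (0.44 at 10 and 2.17 at 14 weeks, limma adjusted p = 0.999) was the 1 member with an unadjusted p under 0.05, as against 875 of all genes. The pools labelled involved lay far apart, with an SD of 1.83 for Lce3f and 1.88 for Lce1e, so the lack of calls does not show that the skins were alike. Of 10 hair shaft markers 8 fell (median -3.25), and their part was not tested. The members' median was 0.10 and that of all genes 0.03. The pools labelled uninvolved leaned toward more Lce3 and less Lce1m than IL-6KO skin, again with no call among the members, where 0.397% of all genes passed and 1652 had an unadjusted p under 0.05. Lce3f came nearest at 2.48 ± 0.50 (2.81 at 10 and 2.15 at 14 weeks, limma adjusted p = 0.0585), and it passed with the filter on low values. Lce3b was at 1.74 ± 0.44 (limma adjusted p = 0.171), Lce3c at 1.5 ± 0.51 (adjusted p = 0.441), Lce3e at 1.10 ± 0.39 (adjusted p = 0.469) and Lce1m at -1.42 ± 0.47 (adjusted p = 0.41). Lce3b, Lce3c and Lce3f passed here with the muscle covariate (106 of all genes, from 88), and 5 members with only these groups in the fit (563). Leaving out a single pool gave at most 1 call.

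Between the 2 sites of IL-17C+KO mice, Lce1m was higher and all 5 Lce3 genes lower in the pools labelled involved, with no call. Lce1m differed by 2.20 ± 0.47 (2.02 at 10 and 2.38 at 14 weeks, limma adjusted p = 0.0708), where 0.505% of all genes passed and 1355 had an unadjusted p under 0.05. It passed without the 10-week WT and IL-6KO pools, without either WT pool alone, and in the fit of these 2 groups alone 1 member passed, the all-gene count being 140 there and 112 in the fit above. Lce3c stood at -1.44 ± 0.51, but the difference was -2.67 at 10 weeks and -0.22 at 14 weeks (limma adjusted p = 0.524). Lce3b showed the same gap between ages, with -2.55 and -0.17, and Lce3f had -2.37 and 0.03. Lce3a held its sign at both ages, with -1.43 and -0.63 (mean -1.03 ± 0.34, limma adjusted p = 0.443). The Lce3 median was -1.17, against 0.02 over all genes. The site difference of Lce3b, Lce3c and Lce3f in these mice came mainly from the 10-week pools. Neutrophil markers were lower in the pool labelled involved at both ages. They summed to 181 there and 4793 in the pool labelled uninvolved at 10 weeks, and to 1100 and 6113 at 14 weeks. Without the 14-week pool labelled involved, Lce3f passed as lower, at -2.22 ± 0.42 (limma adjusted p = 0.033), and Lce1m did not.

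Loss of IL-6 in transgenic skin was compared at each site. In skin labelled involved, Lce1m was higher by 3.08 ± 0.47 in IL-17C+KO than in IL-17C+ pools, or 8.48-fold (3.55 at 10 and 2.62 at 14 weeks, limma adjusted p = 0.0104). It was the 1 member to pass, where 0.649% of all genes did, 0.23% as higher. Every Lce3 gene was nominally lower, from -1.64 ± 0.34 for Lce3a (limma adjusted p = 0.0556) to -0.71 ± 0.44 for Lce3b (adjusted p = 0.724), with a median of -1.23 against 0.00 over all genes. Lce1e, Lce1f and Lce1h were at 0.28, 0.02 and -0.11. Cell type markers moved here too: 4 of 6 neutrophil and 2 of 7 stressed epidermis markers fell (median -3.39 for each list). These lists share S100a8 and S100a9, so they are not separate evidence. Of 10 hair shaft markers 2 fell, of 6 fibroblast markers 1 fell, and of 12 muscle markers 1 rose (median 1.62). Their part was not tested beyond the muscle covariate, which left Lce1m at 2.24 ± 0.72 without a call. The call of Lce1m rests on the row chosen, since the second row gave 0.92 ± 0.40 (limma adjusted p = 0.5) and the mean of both rows 2.0 without a call. It was also lost without the 10-week pool labelled IL-17C+KO involved or without either IL-17C+ involved pool. The filter on low values gave 2 calls (183 of all genes) and the fit of these groups alone 2 (436), where the fit above called 144 of all genes.

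In skin labelled uninvolved the direction was the opposite. Lce3c was higher by 2.55 ± 0.51, or 5.86-fold, in IL-17C+KO than in IL-17C+ pools (3.12 and 1.98, limma adjusted p = 0.0419), and Lce3f by 2.42 ± 0.50, or 5.35-fold (2.45 and 2.39, adjusted p = 0.0475). These 2 of 10 members passed, where 0.712% of all genes did, 0.541% as higher. Here 5 of 6 neutrophil and 5 of 7 stressed epidermis markers rose and 2 of 12 muscle markers fell, and their part was not tested beyond the muscle covariate, which left Lce3c at 0.37 and Lce3f at 0.60. Lce3d rose by 2.24 ± 0.29 (limma adjusted p = 0.00221). Lce3b at 1.91 ± 0.44 (limma adjusted p = 0.0914), Lce1m at -1.94 ± 0.47 (adjusted p = 0.112) and Lce1f at 1.83 ± 0.49 (adjusted p = 0.167) did not pass. The Lce3 median was 1.91 and the Lce1 median 0.96, against -0.01 over all genes. Both calls lay close to the threshold: the count became 0 with age left out, without the eBayes trend, after another quantile normalization or without both IL-6KO arrays. It was also 0 without a single IL-6KO, IL-17C+ involved, 10-week IL-17C+KO uninvolved or 14-week IL-17C+ uninvolved pool, 1 without the 10-week IL-17C+ uninvolved or 14-week IL-17C+KO uninvolved pool, 4 without either IL-17C+KO involved pool, and 7 with only these 2 groups. The all-gene count was 158 in the fit above, 59 to 200 over the 12 arrays left out in turn and 354 with only these 2 groups.

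**Figure D2:**
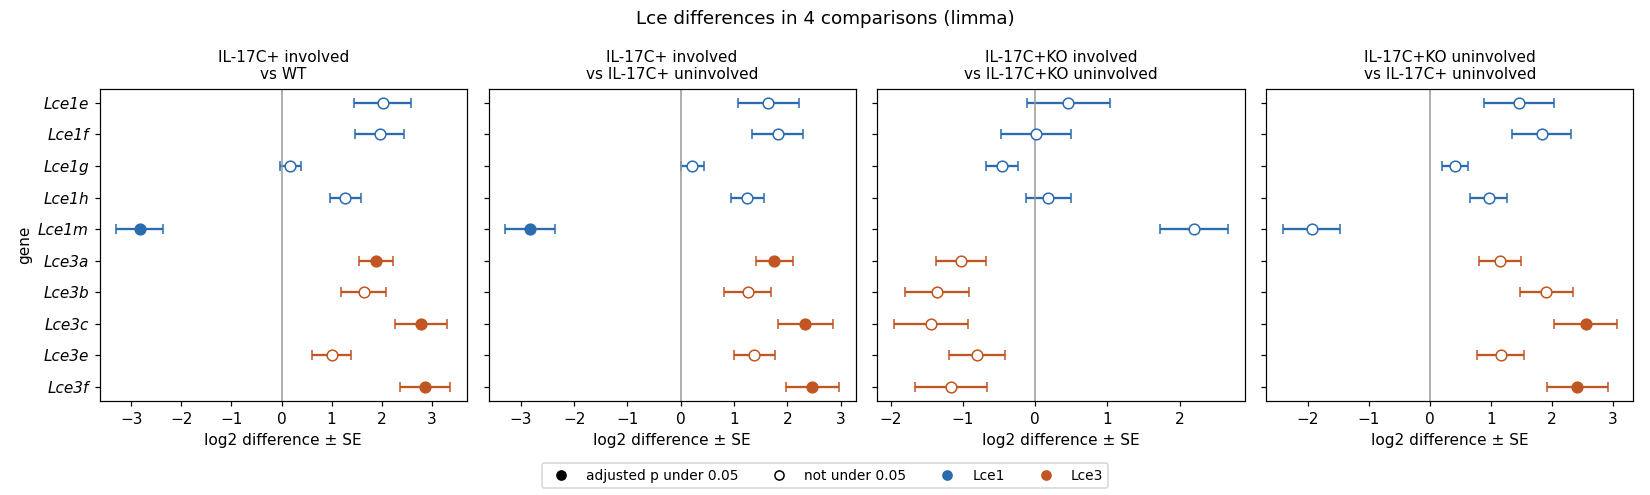
Log2 difference (± SE) of each of the 10 Lce genes in 4 comparisons, 1 panel each with its own x axis; filled points have a limma adjusted p under 0.05, Lce1 genes are blue and Lce3 genes orange. Lce1m lies at -2.83 in IL-17C+ involved skin against WT where Lce3f, Lce3c and Lce3a lie at 2.86, 2.78 and 1.89, and the third panel (IL-17C+KO involved against uninvolved) shows Lce1m at 2.20 with the Lce3 genes below 0, all as open points.

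The opposite directions at the 2 sites were tested directly as an interaction: the involved-minus-uninvolved difference in IL-17C+KO mice minus that in IL-17C+ mice. Of the 10 members 5 passed, where 2.58% of all genes did, 1.15% with a positive and 1.43% with a negative value. For Lce1m the difference of differences was 5.03 ± 0.66 on the log2 scale, at 5.02 and 5.03 for the 2 ages (limma adjusted p = 0.0014). The 4 Lce3 calls ran the other way, at -3.78 ± 0.72 for Lce3c (limma adjusted p = 0.0147), -3.64 ± 0.70 for Lce3f (adjusted p = 0.0153), -2.79 ± 0.49 for Lce3a (adjusted p = 0.00877) and -2.62 ± 0.62 for Lce3b (adjusted p = 0.0448). Lce3b had -4.08 at 10 weeks and -1.15 at 14 weeks. Lce3e stood at -2.19 ± 0.55 (limma adjusted p = 0.0582), and the Lce3 median was -2.79, the Lce1 median -1.07 and that of all genes 0.00. Lce1f at -1.81 ± 0.69 (limma adjusted p = 0.278) and Lce1h at -1.07 ± 0.44 (adjusted p = 0.328) did not pass, and Lce3d, which is no member, was at -3.36 ± 0.41 (adjusted p = 0.000801). This interaction rests on the site labels of the IL-17C+KO pools, which the neutrophil markers went against: 6 of 6 neutrophil and 6 of 7 stressed epidermis markers were called negative in it, and 11 of 12 muscle markers positive.

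The call of Lce1m in this interaction was kept without each of the 12 arrays in turn, at 4.43 to 5.63 (limma adjusted p 0.000103 to 0.012), but not on its second row, at 1.45 ± 0.57 (adjusted p = 0.301). The count of members was 1 without the 10-week pool labelled IL-17C+KO uninvolved, 2 without the 10-week pool labelled IL-17C+KO involved or the 14-week IL-17C+ involved pool, 3 without either 10-week IL-17C+ pool, and 0 with the muscle covariate. The all-gene count was 573, 208 to 731 over the 12 arrays left out in turn, and 13 with the covariate, under which Lce3c turned to 0.49 and Lce3b to 0.78, Lce3f fell to -0.08, and Lce1m was at 3.29 and Lce3a at -2.39. The call of Lce3b was lost without 8 of the 12 arrays in turn, and without both 10-week WT and IL-6KO arrays (limma adjusted p = 0.0559). That of Lce3c was lost without 5 arrays, of Lce3f without 3, and of Lce3a without 2. With age left out of the model Lce3f lost its call (limma adjusted p = 0.0585).

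**Figure D3:**
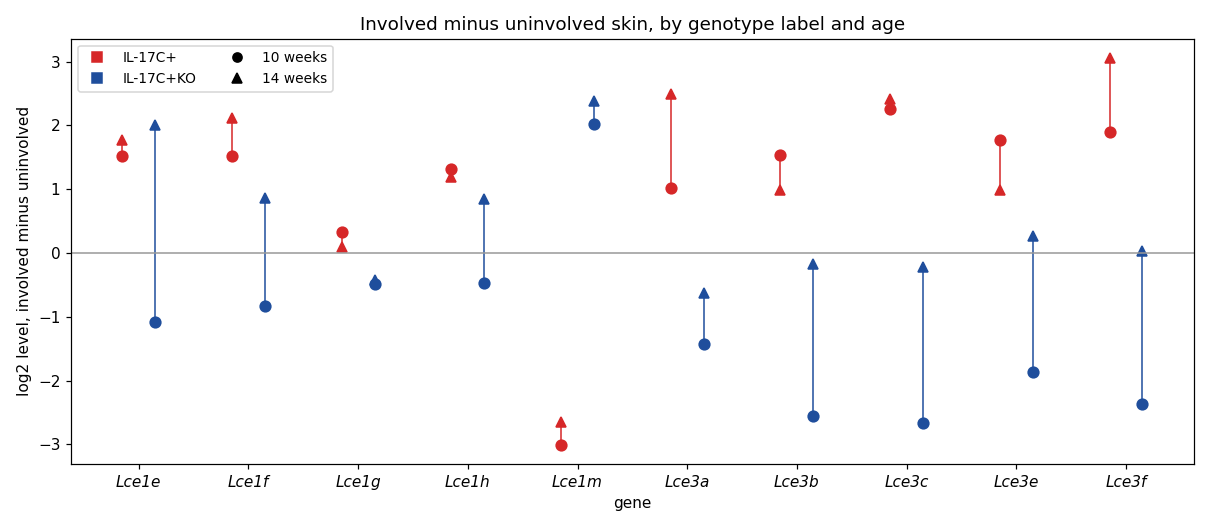
Involved minus uninvolved log2 difference of each Lce gene at 10 and at 14 weeks, in IL-17C+ and in IL-17C+KO mice (1 array on each side of every point). Lce1m is at -3.0 and -2.65 in IL-17C+ mice and at 2.02 and 2.38 in IL-17C+KO mice, and Lce3c goes from 2.25 and 2.42 to -2.67 and -0.22.

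A second interaction asked whether the transgene's difference in involved skin depended on IL-6. It shares its involved arrays with the first. Lce1m at 3.61 ± 0.66 (limma adjusted p = 0.0207) and Lce3a at -2.37 ± 0.49 (adjusted p = 0.034) passed, 2 of 10 members, where 1.31% of all genes passed, 0.473% with a positive and 0.834% with a negative value. Lce3c at -2.72 ± 0.72 (limma adjusted p = 0.113) and Lce1h at -1.52 ± 0.44 (adjusted p = 0.148) did not, and the median was -1.56 over Lce3 and -1.52 over Lce1 genes, against 0.00 over all genes. The second Lce1m row gave 1.04 ± 0.57 (limma adjusted p = 0.622). The count was 0 without a single IL-6KO pool, the 10-week pool labelled IL-17C+KO involved, or the 14-week WT or IL-17C+ involved pool, 1 without the 10-week IL-17C+ involved pool, and 6 without the 14-week pool labelled IL-17C+KO involved. Over the 12 arrays left out in turn the all-gene count ran from 71 to 504, against 290 with none left out. Cell type markers moved with this interaction: 10 of 10 hair shaft markers (median -5.19), 5 of 6 neutrophil and 6 of 7 stressed epidermis markers were called negative. Of 12 muscle markers 10 were called positive (median 3.07). Their part was not tested beyond the muscle covariate, with which no gene passed and Lce1m stood at 1.91 and Lce3a at -1.98.

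No member passed with age. At 14 against 10 weeks no gene of 22180 passed in limma (0%), and 2 members had an unadjusted p under 0.05, as had 1856 of all genes. They were Lce3f at 0.84 ± 0.29 and Lce1h at 0.58 ± 0.18 (limma adjusted p = 0.571 each).

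The 2 subfamilies were then set against each other on each array, as the mean of the 5 Lce3 genes minus the mean of the 5 Lce1 genes after every gene had been centred on its mean over the 12 arrays. The difference was 0.90 and 1.38 for IL-17C+ involved skin and 1.23 and 0.79 in the pools labelled IL-17C+KO uninvolved. In the other groups it was 0.12 and -0.87 for WT, -0.70 and -1.01 for IL-6KO, -0.46 and -0.10 for IL-17C+ uninvolved, and -0.77 and -0.49 for IL-17C+KO involved. The 4 arrays of the first 2 groups were thus above the other 8. Much of the gap came from Lce1m. Without Lce1m, a choice made after its values were seen, the difference was 0.38 and 0.93 for IL-17C+ involved and 1.02 and 0.41 for IL-17C+KO uninvolved skin, against 0.33 and -0.37 for WT, so that the lowest of the 4 high arrays was still above the other 8, but by a small margin. Set against Lce1m alone, Lce3 stood at 2.96 and 3.19 for IL-17C+ involved, 2.07 and 2.31 for IL-17C+KO uninvolved and -2.88 to -0.22 on the other 8 arrays.

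**Figure D4:**
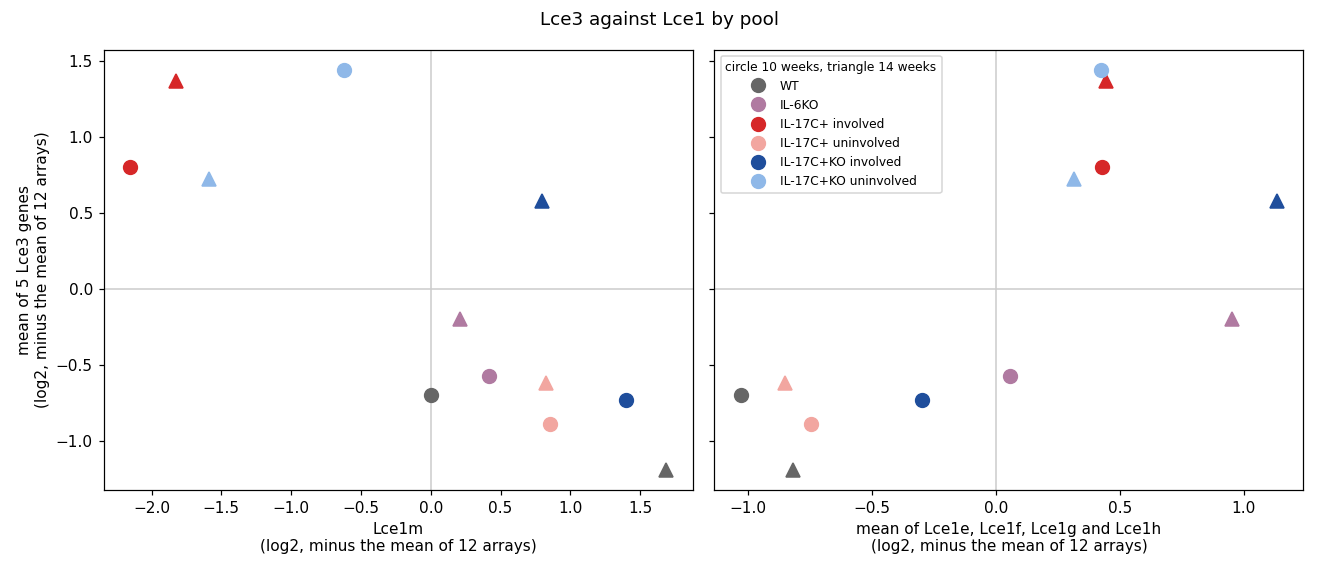
Mean of the 5 Lce3 genes on each array (y axis) against Lce1m (left) and against the mean of Lce1e, Lce1f, Lce1g and Lce1h (right), each as log2 minus its mean over the 12 arrays; colours are groups, circles 10-week and triangles 14-week pools. On the left the IL-17C+ involved pools (Lce1m -2.15 and -1.83) and those labelled IL-17C+KO uninvolved (-0.62 and -1.59) are the 4 arrays with Lce1m below and Lce3 above its mean, and on the right the 14-week pools of IL-6KO (0.95) and IL-17C+KO involved (1.13) lie farthest right.

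In IL-6KO skin Lce1e, Lce1f and Lce1h had levels that overlapped those of IL-17C+ involved skin, whereas Lce3f at 2.53 and 3.38 was below both involved pools. Over the 12 arrays, Lce1e correlated with Lce1f at r = 0.962, Lce3c with Lce3b at 0.937 and with Lce3f at 0.915. Lce3c also correlated across the subfamilies, with Lce1f at 0.786, Lce1e at 0.764 and Lce1h at 0.715, beside 0.727 with Lce3e. Lce3e correlated with Lce1e at 0.339 only. Lce1m correlated with Lce3a at -0.820, with Lce3c at -0.769, with Lce1g at -0.712 and with Lce1e at -0.335. These coefficients describe 12 arrays that share groups, ages and 1 normalization. Near-identical Lce genes can share probe sequence, and the part of this in the correlations was not tested.

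Other genes of the cornified envelope were counted by lists. Of 12 measured Sprr genes, 8 rose and none fell in IL-17C+ involved skin against WT, with a median of 1.79 against 0.01 over all genes. Sprr2d rose by 5.06 ± 0.85 (limma adjusted p = 0.0113), Sprr2e by 4.86 ± 0.68 (adjusted p = 0.00324) and Sprr1b by 4.60 ± 0.62 (adjusted p = 0.00291). Of the list members that did not pass, Sprr1a was at 1.41 ± 0.48 (limma adjusted p = 0.213). In the site by IL-6 interaction 8 of the 12 Sprr genes passed, all negative (median -2.60), with Sprr2d at -8.13 ± 1.21 (limma adjusted p = 0.00318).

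Among 12 other envelope and fused S100 proteins, 1 rose and 1 fell in involved skin against WT (median 0.79). Repetin (Rptn), a fused S100 envelope protein, rose by 4.81 ± 0.62 (limma adjusted p = 0.00211), and Flg2, which encodes filaggrin-2, fell by 2.48 ± 0.39 (adjusted p = 0.00809). Flg, encoding filaggrin, was at 2.43 ± 0.59 (limma adjusted p = 0.0605). The same 2 genes passed in the site by IL-6 interaction, Rptn at -6.28 ± 0.88 (limma adjusted p = 0.00218) and Flg2 at 4.32 ± 0.56 (adjusted p = 0.00128), which are the signs of the Lce3 genes and of Lce1m, respectively.

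Of 10 cross-linking and cornification enzymes, 3 rose in involved skin against WT and none fell (median 1.16): Casp14, a caspase of terminal differentiation, by 3.17 ± 0.60 (limma adjusted p = 0.0188), Tgm3 by 2.10 ± 0.36 (adjusted p = 0.0121) and Tgm1 by 1.58 ± 0.32 (adjusted p = 0.0267). Tgm1 and Tgm3 encode transglutaminases that cross-link envelope proteins. In IL-6KO against WT skin 2 of the 10 rose, Casp14 by 3.20 ± 0.60 (limma adjusted p = 0.0384) and Tgm3 by 2.29 ± 0.36 (adjusted p = 0.0194), and 1 of 12 Sprr genes did, Sprr4 by 2.43 ± 0.41 (adjusted p = 0.0281). Of 21 transcription factors of epidermal differentiation, 1 rose in involved skin against WT, Cebpb by 1.11 ± 0.24 (limma adjusted p = 0.0335), with a list median of 0.20. Cebpb also passed in the site by IL-6 interaction, at -1.43 ± 0.33 (limma adjusted p = 0.0414).

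Beside these gene groups, cell type markers moved in the same contrast. In involved skin against WT, 6 of 6 neutrophil markers and 6 of 7 stressed epidermis markers rose, and 11 of 12 muscle markers fell (median -2.29). Of 10 hair shaft markers 3 rose (median 1.94), Krtap19-1 by 3.91, Krtap3-1 by 2.45 and Krt33a by 1.70. Their part in the Lce differences was not tested beyond the muscle covariate.

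Genes most like the members were ranked by Pearson's r over the 12 arrays among 10495 genes, as a description without a test. For the mean of the 5 Lce1 genes they were Lipk (r = 0.962, Spearman's rho 0.958), Il18 (0.957 and 0.944), Abca12 (0.948 and 0.874), Pnpla1 (0.945 and 0.902) and Lrrc28 (0.943 and 0.916). Lipk, Abca12 and Pnpla1 are known for lipid handling in the upper epidermis. For the mean of the 5 Lce3 genes they were Sprr2b (0.958 and 0.867), Slc7a11 (0.954 and 0.916), Krt16 (0.953 and 0.916), S100a8 (0.950 and 0.888) and Sprr2e (0.950 and 0.930). Krt16 is a stress keratin and S100a8 an alarmin of neutrophils and stressed keratinocytes. For Lce1m taken alone, a profile added after its values were seen, they were Flg2 (0.982 and 0.972), Mboat2 (0.976 and 0.937), Gdpd2 (0.972 and 0.909), Serpinb7 (0.964 and 0.916) and Fam189a2 (0.961 and 0.965).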

How the data were processed

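RNA of 12 pools of mouse dorsal skin was read on expression arrays, 1 array a pool. The authors deposited 1 table of array intensity values made by RMA in Affymetrix Expression Console, per the submitters' processing notes. No version and no probe filter is named there. The deposited intensities are linear (2.50 to 18384.7, array medians 15.7 to 18.8), and log2 was taken here. The design had assumed log2 values. Of 41345 rows, 23521 name 1 gene, 1814 several and 16010 none. Rows naming 1 gene were used, and for 1082 genes with more rows the one with the highest mean, which left 22180 genes. The number of arrays, 2 a group, limits the precision.

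Groups follow the titles. Differences were fitted in R 4.3.3 with limma 3.58.1 (group plus age over all 12 arrays, eBayes with an intensity trend, 5 residual and 7.65 prior degrees of freedom) and adjusted by Benjamini-Hochberg over all genes in each of 12 comparisons. The threshold was an adjusted p of 0.05. The calculation was tested on simulated data with independent noise and no age effect or marker shifts. That checks the code and not the calls made here. The age block was planned; between groups, the 14-minus-10-week differences correlated at -0.21 to 0.52 over 15 pairs of groups, 7 of them above 0.1, so the ages do not clearly pair the pools. Promoter windows were aligned with Biopython 1.88 (gaps counted as different), from RefSeq tables for GRCm38.p6.

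The members and gene lists were chosen with earlier results of these data known. From each list, up to 3 called genes and the largest uncalled one were eligible to be named. The genes most like a profile are the 5 with the highest r, without Lce genes, predicted loci and small RNAs. Alternatives were no age block, no trend, a filter on low values, another quantile normalization, the mean of all rows, a muscle covariate, only the groups compared and each array left out. The fits that drop the 4-mouse pools (WT and IL-6KO at 10 weeks), without both IL-6KO arrays, without the IL-17C+KO arrays, and with the second Lce1m row were chosen after seeing the data.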

Additional observations from a re-analysis of the deposited data

Results flagged for a closer look

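Differences between genotypes passed in a test of the difference itself for Lce1m and 4 Lce3 genes. Between IL-17C+ and IL-17C+KO mice, the involved-minus-uninvolved difference differed by 5.03 ± 0.66 (SE, log2) for Lce1m, -2.79 ± 0.49 for Lce3a, -2.62 ± 0.62 for Lce3b, -3.78 ± 0.72 for Lce3c and -3.64 ± 0.70 for Lce3f (limma adjusted p 0.0014, 0.00877, 0.0448, 0.0147 and 0.0153). For Lce1m, Lce3a, Lce3b and Lce3c both ages showed opposite site differences in the 2 genotypes, and for Lce3f only the 10-week pools did. Between the backgrounds with and without IL-6, the transgenic-minus-control difference in involved skin differed by 3.61 ± 0.66 for Lce1m and -2.37 ± 0.49 for Lce3a (limma adjusted p 0.0207 and 0.034). The site labels of the IL-17C+KO pools run against their neutrophil markers, and their part in these values was not tested.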

How the results depend on the processing

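With 2 pools a group, and single pools assumed to vary like the others when their partner is left out, the calls depended on the fit. Of 65 differences followed because their unadjusted p was under 0.05, 18 passed, and over 23 alternatives (1375 refits) 1131 kept direction and side of the threshold, 120 lost the call, 99 gained one and 25 turned. All 25 turned under the muscle covariate, which moves with the groups: in IL-17C+ involved against WT Lce1e -0.93, Lce3b -0.82, Lce3c -0.31 and Lce3e -0.86; against IL-17C+ uninvolved Lce1e -1.37, Lce3b -1.25, Lce3c -0.82, Lce3e -0.52 and Lce3f -0.16; in IL-6KO against WT Lce3c -0.60; in IL-17C+KO against IL-17C+ involved Lce3c 0.86, Lce3e 0.23 and Lce3f 0.51, and uninvolved Lce1e -0.62 and Lce3e -0.16. In the site interaction these were Lce1f 0.41, Lce1g 0.18, Lce1h 0.22, Lce3b 0.78, Lce3c 0.49 and Lce3e 0.39, and in the transgene interaction Lce1e 2.11, Lce1f 0.19, Lce3c 1.46 and Lce3f 1.93. Against WT, Lce1m (-1.58 ± 0.96), Lce3a (1.60 ± 0.76) and Lce3f (0.29 ± 0.73, from 2.86) kept their direction without a call.

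Counts of members called that moved by over 1.5 times were as follows. With the muscle covariate, 0 passed in IL-17C+ involved against WT (from 4) and against uninvolved (from 4), in IL-17C+KO against IL-17C+ involved (from 1) and uninvolved (from 2), and in both interactions (from 5 and 2), and 3 in IL-17C+KO uninvolved against IL-6KO (from 0). Over all genes that covariate left 0 calls in these comparisons, except 13 in the site interaction (from 573) and 106 in IL-17C+KO uninvolved against IL-6KO (from 88). With only the groups compared, which leaves 1 residual degree of freedom, the counts were 9, 9, 3 (IL-6KO against WT), 1 (IL-17C+KO sites), 5 (IL-17C+KO uninvolved against IL-6KO), 2 (IL-17C+KO against IL-17C+ involved) and 7 (uninvolved), beside 883, 770, 266, 140, 563, 436 and 354 of all genes (from 399, 357, 101, 112, 88, 144 and 158). Without the IL-17C+KO arrays they were 8 against WT, 8 against uninvolved and 3 in IL-6KO against WT, beside 418, 383 and 132 of all genes. Without the pools of 4 mice (WT and IL-6KO at 10 weeks), which left 1 WT and 1 IL-6KO pool, the counts between the IL-17C+KO sites and in the transgene interaction also moved. In that fit Lce1m differed by 2.20 between the sites, and Lce3a stood at -2.12 in the interaction. The filter on low values (14363 genes, 9 members, without Lce1g) gave 1 in IL-17C+KO uninvolved against IL-6KO (118 of all genes, from 88). It gave 2 in IL-17C+KO against IL-17C+ involved (183, from 144). The mean of rows gave 0 there (125 of all genes), 1 uninvolved (148) and 1 in the transgene interaction (260). The second Lce1m row gave 0 in IL-17C+KO against IL-17C+ involved (143) and 1 in the transgene interaction (289). In IL-17C+KO against IL-17C+ uninvolved skin 0 passed without the trend, after quantile normalization and without both IL-6KO arrays, beside 143, 170 and 131 of all genes (from 158). The cause of these moves was not tested.

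Without the replicate block for age, 2 members passed in IL-17C+ involved against uninvolved (from 4), beside 301 of all genes. In IL-17C+KO against IL-17C+ uninvolved 0 passed (from 2), beside 118 of all genes. Lce3f lost its call in the site interaction, at -3.64, and the block changed no other call of a member.

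Leaving out 1 array gave 0 to 6 calls against WT and 0 to 6 against uninvolved for IL-17C+ involved, 0 to 2 for IL-6KO against WT, 0 to 1 between IL-17C+KO sites, 0 to 1 for IL-17C+KO uninvolved against IL-6KO, 0 to 2 and 0 to 4 for IL-17C+KO against IL-17C+ involved and uninvolved, 1 to 7 and 0 to 6 in the site and transgene interactions, and 0 otherwise. No followed difference turned. The 12 array values of Lce3 minus Lce1 moved by at most 0.19 under another normalization or the mean of rows.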

Other observations

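Array rows that name several Lce genes (2 in all) were left out of every count above, so Lce1c and Lce1d have no value of their own here. Of the 8 Lce genes that are not members, Lce1b was at 6.15 ± 0.76 (SD, n = 2) in WT and 6.34 ± 0.30 in IL-17C+ involved skin, so that not every Lce1 gene followed Lce1e or Lce1m. Lce1a2 leaned the way of Lce1m without passing, at -0.94 ± 0.31 (SE) in IL-17C+ involved skin against WT (limma adjusted p = 0.201). In the site by IL-6 interaction it was at 1.51 ± 0.44 (limma adjusted p = 0.112). Lce6a had 4.14 ± 0.15 in WT, 5.83 ± 0.92 in IL-6KO, 5.55 ± 0.21 in IL-17C+ involved and 4.44 ± 0.19 in IL-17C+ uninvolved skin, and did not pass in these comparisons. Lce3d had 4.97 ± 0.10, 6.34 ± 0.13, 7.51 ± 0.08 and 5.43 ± 0.07 in the same groups. For the mean of Lce1e, Lce1f and Lce1h, a set chosen after their values were seen, the gene most like it over the 12 arrays was Il1f5 (r = 0.989, Spearman's rho 0.986), which encodes the interleukin-36 receptor antagonist.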
